A study of Mus musculus with 36 samples.

Results

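Testes of Brdt-/- mice at 20 days post partum (dpp) were compared with testes of Brdt+/- mice at 17 dpp, to ask which transcripts of the mutant testis match a younger testis and which do not. Both groups belong to 1 knockout line, carry the C57BL/6 strain label, and were chosen by their genotype and age labels. The knockout group held 4 animals (139, 140, 148 and 152) on 6 arrays and the heterozygous group 6 animals (75, 116, 121, 126, 127 and 131) on 6 arrays. Together they made up 10 of the 24 animals and 12 of the 36 arrays of the study. The study also measured knockouts at 17 dpp, wild types of the same line at 20 dpp, and 20 dpp mice of a second line that lacks the first bromodomain (BD1) of Brdt, both BD1-/- mice and controls, of which 2 were BD1+/- and 2 BD1+/+. RNA of whole testis was hybridised to single-colour Illumina bead arrays, and the arrays of an animal were averaged first, which makes n a number of animals.

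Age, genotype and litter all differ between both groups and cannot be told apart here. The heterozygous animals carry 1 knockout allele, so they are not wild type. Knockouts 148 and 152 came from litter 1, 139 and 140 from litter 2, and the heterozygous animals from litters 7, 8 and 9, so no litter is shared. All 3 wild types at 20 dpp (146, 149 and 157) came from litter 1, the litter of knockouts 148 and 152, and the knockouts at 17 dpp came from litters 7, 8 and 9 like the heterozygotes. The source tissue is the whole organ, in which fewer cells of a type and less RNA per cell cannot be told apart.

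BRDT is the testis-specific member of the BET family, proteins that bind acetylated histones through a pair of bromodomains. In the juvenile mouse testis the first wave of spermatogenesis runs in step, so that spermatocytes in meiotic prophase are the most advanced germ cells for some days before round spermatids appear and transcripts of the acrosome, the flagellum and chromatin compaction accumulate. Leydig cells, which make androgens, and Sertoli and peritubular cells mature over the same days.

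Signals were background-corrected, quantile-normalized and put on a log2 scale, and every level below is such a normalized log2 signal. A gene was called when its Benjamini-Hochberg adjusted p in limma was under 0.05 over 11529 genes. On the 12 arrays the median raw signal lay between 118.3 and 143.9 intensity units, and 17658 to 19460 probes were detected. The 2 pairs of arrays from 1 animal correlated at 0.991 and 0.993 over probes, against a median of 0.990 between animals of a group. Averaged over the measured markers per animal, Sertoli cell genes lay at 10.07 to 10.24 in heterozygotes and 9.99 to 10.26 in knockouts, and early meiotic prophase genes at 9.90 to 10.09 and 9.94 to 10.10. Both tissues therefore held the defining transcripts of a testis in meiosis.

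Brdt itself was lower in the knockouts than in the younger heterozygotes. Its level was 7.23, 7.52, 8.28 and 8.23 in knockouts 139, 140, 148 and 152, and 8.47 to 9.52 with a median of 8.93 over the 6 heterozygotes. No knockout reached the lowest heterozygote, and the knockouts of litter 1 lay nearer to it than those of litter 2. The means were 7.82 ± 0.523 (SD, n = 4) and 9.00 ± 0.374 (n = 6), a log2 difference of -1.19 ± 0.25 (SE; limma, adjusted p = 0.00665), and both Brdt probes were called lower. With the litter 1 knockouts alone the difference was -0.75 (limma, adjusted p = 0.0768), and with the litter 2 knockouts alone it was -1.63 (limma, adjusted p = 0.023). The position of the probes relative to the altered part of the gene was not checked. Brdt stood at 11.52 ± 0.0894 in wild types at 20 dpp (n = 3) and at 6.10 ± 0.641 in knockouts at 17 dpp (n = 4).

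Most transcripts of the older knockout testis stood within 2-fold of the younger heterozygous testis. The 95% confidence interval of the difference lay wholly within 2-fold for 10628 of 11529 genes (92.2%) and wholly beyond it for 14, and it allowed both for 887. Genes were kept if detected in at least 3 animals of any group, so this count includes genes at background in both groups compared. Of the genes described below as rising, 326 were detected on no array of either group, and 319 of those had an interval within 2-fold. For such genes the interval shows no match of expressed transcripts. Differences were nevertheless detected: 1310 genes (11.4%) were called, 680 higher (5.9%) and 630 lower (5.46%) in the knockout. Of these 973 had an interval within 2-fold, and 81 were at least 2-fold higher and 10 at least 2-fold lower. Over all genes the median log2 difference was -0.02. All 4 knockouts lay outside the range of the heterozygotes for 1095 genes (9.5%), and 762 of those were called.

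The split between higher and lower calls followed the scaling: with each array scaled to its median instead of its quantiles, 1520 genes were called higher and 203 lower. The knockouts of litter 1 and litter 2 stood apart from each other in how far they differed from the heterozygotes. Against the same heterozygotes, 2231 genes were called with the litter 1 animals alone and 16 with the litter 2 animals alone, and all 16 were among the 1310. The litter 1 animals were measured on 2 arrays each and the litter 2 animals on 1 each, so litter and array number cannot be told apart. Between both litters 17 genes (0.147%) were called, and 1745 had an unadjusted p under 0.05. With litter as a random block 116 genes were called, all of them among the 1310. Of the 67 called genes that were named by rule, 22 were called with litter as a random block and 7 with litter 2 alone. The number of calls was 368 without knockout 148, 389 without knockout 152, 776 without heterozygote 121 and 838 without heterozygote 116, and it ranged up to 1835 without knockout 139.

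To ask whether the older knockout had begun the change that a normal testis makes, genes of testis maturation were taken from 2 groups that share no animal with this comparison, though the younger one shares its litters with the heterozygotes: the controls of the BD1 line at 20 dpp and the knockouts at 17 dpp. Between those groups 1749 genes were at least 2-fold higher in the older controls (the rising genes) and 1472 at least 2-fold lower (the falling genes), with differences of both age and genotype. For the rising genes the median log2 difference between knockouts at 20 dpp and heterozygotes at 17 dpp was 0.23, where that between wild types at 20 dpp and the same heterozygotes was 1.63. Knockouts at 17 dpp, whose low values entered the choice of these genes, had a median of -0.28 against the same heterozygotes. Over all genes, 468 were called at least 2-fold higher and 25 at least 2-fold lower in knockouts at 20 dpp than in knockouts at 17 dpp. Of the 1749 genes 151 were called higher (8.63%, against 5.9% of all genes) and 8 lower (0.457%, against 5.46%), and 1274 (72.8%) had an interval within 2-fold. On no array of either group were 326 of the rising genes detected. Among the 1423 others, 955 (67.1%) had an interval within 2-fold.

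**Figure D1:**
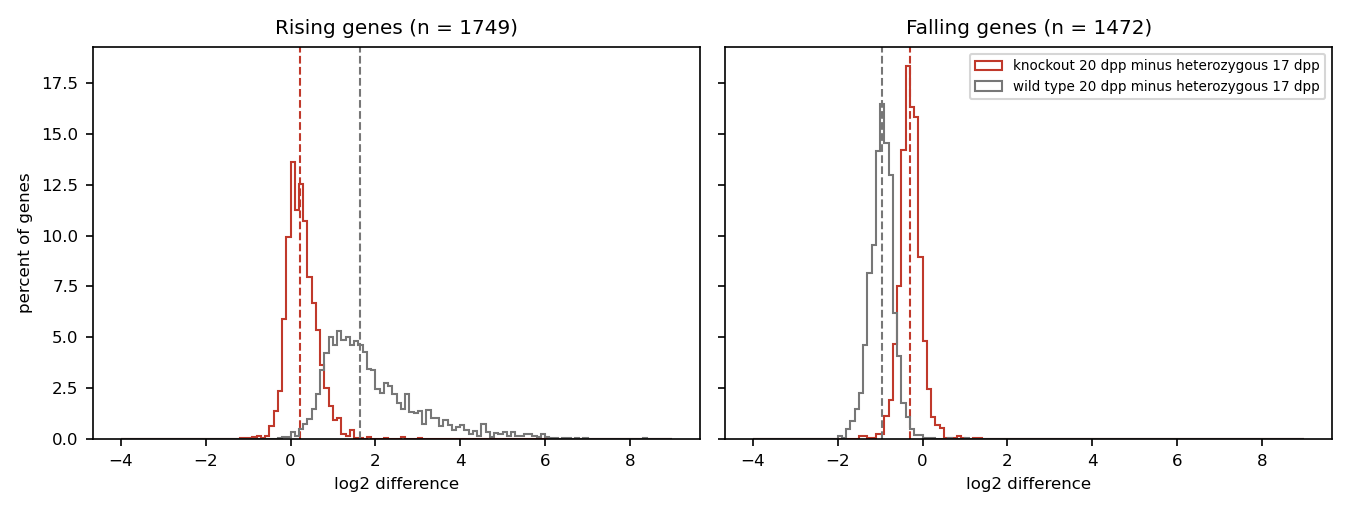
Distribution of log2 differences (x axis) as percent of genes (y axis) for the 1749 rising and 1472 falling genes, in bins of equal width, for knockouts at 20 dpp (red) and wild types at 20 dpp (grey), each minus the same heterozygotes at 17 dpp. Dashed lines are medians, which stand at 0.23 and 1.63 for the rising genes and at -0.29 and -0.95 for the falling genes.

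The largest rises that stayed within 2-fold here were those of Mesp1, which encodes a basic helix-loop-helix factor, Rimbp3, a protein of the spermatid manchette, Gtsf1l, a relative of the piRNA factor Gtsf1, and Spata45, Ankrd61 and Gm2888. Mesp1 stood at 7.11, 7.62, 7.79 and 8.55 in knockouts 139, 140, 148 and 152 and at 6.05 to 9.17 with a median of 7.89 in heterozygotes, and wild types at 20 dpp had 11.43 ± 0.253 (n = 3). Rimbp3 stood at 5.33, 6.67, 7.59 and 7.94 against 5.32 to 8.19 with a median of 7.16, and in wild types at 10.86 ± 0.186. Knockouts at 17 dpp had 5.53 ± 0.501 of Mesp1 and 5.03 ± 0.497 of Rimbp3 (n = 4), below the heterozygotes of their age (limma, adjusted p = 0.00509 and 0.0487) and below the knockouts at 20 dpp (limma, adjusted p = 0.00244 and 0.0129, where 26.8% of all genes were called). The knockout range lay inside the heterozygous range for both genes, and it was wide: Rimbp3 was detected in 5 of the 6 arrays of each group. Gtsf1l, Spata45 and Ankrd61 were not well above background on any array of either group, with knockout values of 4.56, 4.38, 4.81 and 5.27 for Gtsf1l, 4.36, 4.37, 4.45 and 4.45 for Spata45 and 5.17, 5.10, 5.24 and 5.04 for Ankrd61. In wild types at 20 dpp these 3 genes reached 10.90 ± 0.582, 10.50 ± 0.48 and 11.42 ± 0.468. Gm2888 was detected on 1 knockout array and no heterozygous array, and its wild-type level was 9.32 ± 0.124. Each of the 6 genes was called between wild types at 20 dpp and the heterozygotes, as were 71.4% of all genes, and none between the knockouts and the heterozygotes (limma, lowest adjusted p = 0.614).

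**Figure D2:**
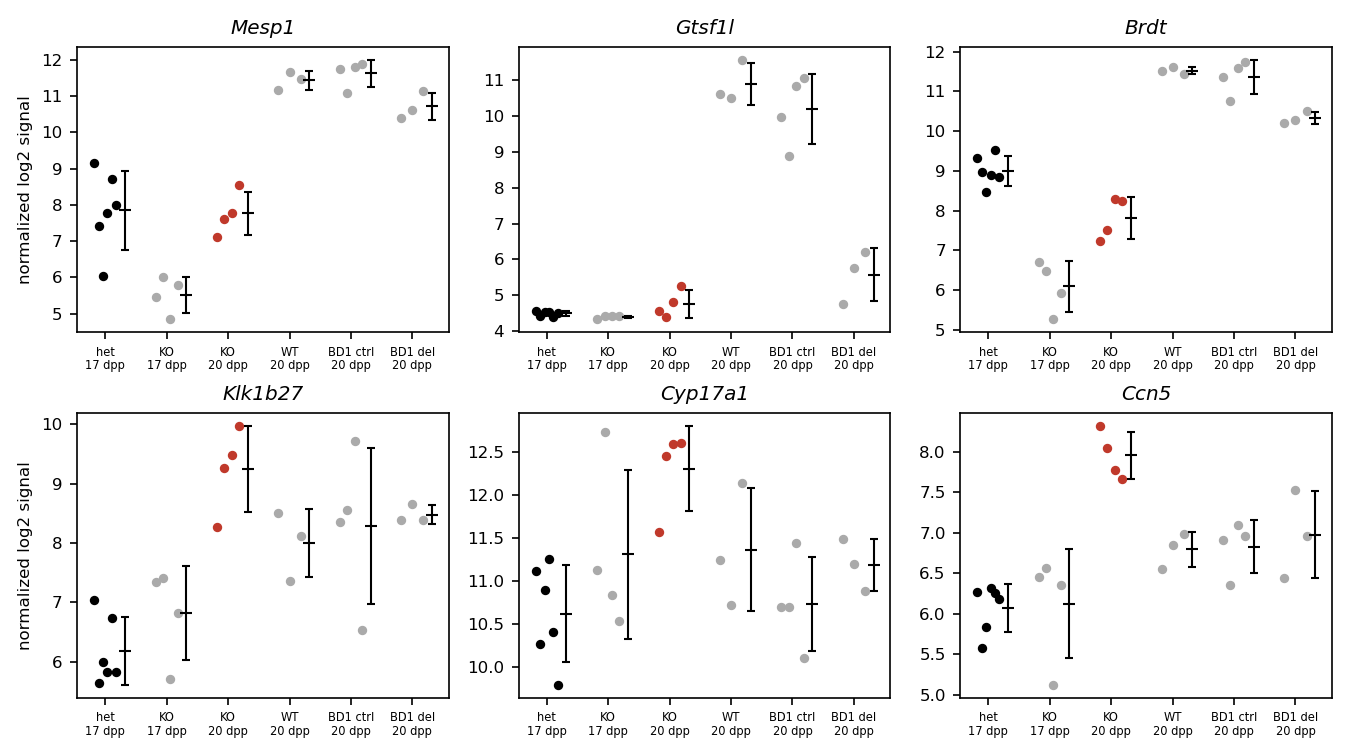
Normalized log2 signal (y axis) of 6 genes in the 6 groups of the study (x axis; het, heterozygous; KO, knockout; WT, wild type; ctrl, control; del, deletion; age in dpp). Each point is 1 animal, with the heterozygotes at 17 dpp in black and the knockouts at 20 dpp in red, and bars are mean and SD. Mesp1 and Gtsf1l in the knockouts at 20 dpp stand close to the heterozygotes at 17 dpp, Brdt stands below them, and Klk1b27, Cyp17a1 and Ccn5 stand above them.

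Some rising genes were called higher in the older knockout, and in 5 of the 6 named here both litter 1 animals lay above both litter 2 animals. Gm5935, a predicted gene of chromosome X, stood at 5.30, 5.70, 6.99 and 8.00 in knockouts 139, 140, 148 and 152, and was not well above background in any heterozygote (4.46 to 4.72 with a median of 4.65), at least 1.91-fold higher (limma, adjusted p = 0.00498). Gm10413 stood at 6.12, 6.41, 6.32 and 7.35 against 4.73 to 5.87 with a median of 5.37 (1.20 ± 0.25, SE; limma, adjusted p = 0.00604). The knockouts did not overlap the heterozygotes for these 2 genes, whose calls held without any 1 animal but not with litter 2 alone (limma, adjusted p = 0.271 and 0.179). Gm20815, of chromosome Y, stood at 4.43, 4.59, 7.36 and 9.15, so that the litter 2 knockouts lay within the heterozygous range of 4.38 to 4.66 with a median of 4.54 and the litter 1 knockouts far above it (limma, adjusted p = 0.0427). The litter 2 knockouts were not well above background for it. The other 3 genes named by the same rule were 4930555G01Rik (1.43 ± 0.32), Gm5797 (1.30 ± 0.37) and 1700049L16Rik (1.01 ± 0.28), and in each of them knockout 139 overlapped the heterozygotes. Wild types at 20 dpp were above the knockouts for all 6 genes, with a knockout minus wild-type log2 difference from -6.53 for Gm20815 to -2.79 for Gm10413 (limma). Several of these predicted genes belong to families of near-identical copies, so the gene behind the probe is uncertain. Without background correction Gm20815, Gm5935 and 1700049L16Rik were not called (limma, adjusted p = 0.0659, 0.0541 and 0.209). With the authors' values Gm20815 and 1700049L16Rik were not called (limma, adjusted p = 0.0625 and 0.18). Calls ended for Gm20815 without any 1 of animals 75, 116, 121, 126, 127, 131, 148 and 152 (adjusted p = 0.0516 to 0.234), 4930555G01Rik without animal 152 (adjusted p = 0.0526), Gm5797 without any 1 of animals 116, 121, 148 and 152 (adjusted p = 0.0563 to 0.145), and 1700049L16Rik without any 1 of animals 121, 148 and 152 (adjusted p = 0.0594 to 0.121).

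A few rising genes were lower in the older knockout than in the younger heterozygote, as Brdt was. Jakmip2, a Janus kinase and microtubule interacting protein, stood at 5.86, 5.51, 5.55 and 5.64 in the knockouts and 6.19 to 6.68 with a median of 6.44 in the heterozygotes, without overlap (-0.80 ± 0.17, SE; limma, adjusted p = 0.00671). Wild types at 20 dpp had 9.15 ± 0.159, so that the wild types stood above the younger heterozygotes and the knockouts below them. Svop (-0.83, adjusted p = 0.0302), related to a synaptic vesicle protein, Capsl (-0.82, adjusted p = 0.0384), Zswim2 (adjusted p = 0.0256) and the cation channel Trpm1 (adjusted p = 0.0388) were also called lower in limma. Zswim2 was detected on 3 heterozygous arrays and no knockout array, and Trpm1 on no array of either group, so that the call of Trpm1 compares signals not well above background and no difference is given for these 2 genes. The difference of Jakmip2 was -0.28 without background correction (limma, adjusted p = 0.139) and -0.31 with the authors' values (limma, adjusted p = 0.116). Capsl, Zswim2 and Trpm1 were not called in either of these fits (limma, adjusted p = 0.0526 to 0.117). Jakmip2, Svop, Capsl, Zswim2 and Trpm1 were not called with litter as a random block (adjusted p = 0.0753 to 0.17). Calls ended for Svop without any 1 of animals 116, 126, 139, 140 and 148 (adjusted p = 0.0533 to 0.0784), Capsl without any 1 of animals 75, 126, 127, 131, 139, 140 and 152 (adjusted p = 0.0526 to 0.105), Zswim2 without any 1 of animals 140, 148 and 152 (adjusted p = 0.0585 to 0.0685), and Trpm1 without any 1 of animals 75, 116, 121, 126, 139, 140, 148 and 152 (adjusted p = 0.0524 to 0.0997). Svop and Capsl were also called lower in knockouts than in heterozygotes at 17 dpp (limma, adjusted p = 0.00677 and 0.0233), where 1.34% of all genes were called.

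Some of the genes that fall with maturation were lower in the older knockout. Of the 1472 falling genes 240 were called lower (16.3%, against 5.46% of all genes) and 11 higher (0.747%), with a median log2 difference of -0.29 where wild types at 20 dpp had -0.95 against the same heterozygotes. Knockouts at 17 dpp, whose high values entered the choice of these genes, had a median of 0.18 against those heterozygotes. An interval within 2-fold was found for 1323 of them (89.9%, against 92.2% of all genes). The count of falling genes called lower was 439 of 1471 with the litter 1 knockouts alone (median -0.41) and 0 of 1471 with the litter 2 knockouts alone (median -0.16), where limma called 16 of all 11529 genes and 1455 had an unadjusted p under 0.05. It was 16 of 1512 with litter as a random block and 49 of 738 with median scaling, the genes being chosen anew in each fit. It was 56 without knockout 148, 46 without knockout 152, 107 without heterozygote 121, 134 without heterozygote 116, 148 without heterozygote 131 and 377 without knockout 139. The count of rising genes called higher was 410 with litter 1 alone, 1 with litter 2 alone, 38 without knockout 148, 35 without knockout 152, 70 without heterozygote 121, 87 without heterozygote 116, 97 without heterozygote 131 and 287 without knockout 139.

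Markers of germ cell stages were read from gene lists. Among 20 spermatogonia genes 6 were called lower (30%, against 5.46% of all genes) and 0 higher (against 5.9%), with a median of -0.32 against -0.02 over all genes. They were Tex101, a surface protein of germ cells, Uchl1, a ubiquitin hydrolase of spermatogonia, Sohlh1, a transcription factor of spermatogonial differentiation, Ret, the receptor for glial cell line-derived neurotrophic factor, the homeobox gene Rhox13 and the receptor Kit. Uchl1 stood at 10.91, 10.83, 10.26 and 10.27 in knockouts 139, 140, 148 and 152 and at 10.91 to 11.42 with a median of 11.02 in heterozygotes (-0.52 ± 0.14, SE; limma, adjusted p = 0.0205). Sohlh1 stood at 10.85, 10.80, 10.61 and 10.53 against 10.88 to 11.53 with a median of 11.28 (-0.51 ± 0.15, SE; limma, adjusted p = 0.029). Uchl1 overlapped in knockout 139 and Sohlh1 did not overlap. Kit, Tex101, Ret and Rhox13 differed by -0.40, -0.45, -0.64 and -0.65. Id4 (0.59), Zbtb16 (0.34) and Etv5 (0.29), genes of undifferentiated spermatogonia, were not called. No member of the list was called without knockout 148 or without knockout 152, with litter 2 alone or with litter as a random block, where the medians were -0.27, -0.24, -0.18 and -0.28. With litter 1 alone 7 were called lower, with median scaling 1, without heterozygote 121 or 126 2, and without heterozygote 116 or 131 3.

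Differences among early meiotic prophase genes were small and ran both ways. Of 20, 3 were called higher (15%, against 5.9% of all genes) and 2 lower (10%, against 5.46%), and 19 had an interval within 2-fold. Syce3, of the synaptonemal complex (0.28 ± 0.08, SE), Psmc3ip, a partner of the meiotic recombinase (0.53 ± 0.17), and Msh4, of the crossover complex (0.54 ± 0.18), were higher (limma, adjusted p = 0.0324, 0.0459 and 0.0468). Tex11, an X-linked crossover gene (-0.64 ± 0.17), and Stag3, a meiotic cohesin (-0.22 ± 0.06), were lower (limma, adjusted p = 0.0212 and 0.0278). Stag3 stood at 12.50, 12.39, 12.62 and 12.52 in the knockouts and 12.67 to 12.80 with a median of 12.73 in the heterozygotes, a small difference without overlap. With median scaling neither lower gene was called, Stag3 at -0.05 and Tex11 at -0.50 (limma, adjusted p = 0.711 and 0.084). No call of this list remained without knockout 152 or with litter as a random block (adjusted p = 0.118 to 0.194 for Syce3, Psmc3ip, Tex11 and Stag3), and with litter 1 alone 4 were called higher and 6 lower. Calls of those named ended for Syce3 without any 1 of animals 116, 121, 126, 131, 148 and 152 (adjusted p = 0.0508 to 0.129), Psmc3ip without any 1 of animals 116, 121, 126, 131, 140, 148 and 152 (adjusted p = 0.0715 to 0.173), Tex11 without animal 148 or 152 (adjusted p = 0.112 and 0.099), and Stag3 without any 1 of animals 121, 126, 140 and 152 (adjusted p = 0.0502 to 0.0835).

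Of 22 pachytene and diplotene spermatocyte genes only Rdm1 was called (4.55%, against 11.4% of all genes), and the median of the list was 0.39. An interval within 2-fold was found for 11 (50%, against 92.2% of all genes), and the other 11 were not resolved. At an unadjusted p under 0.05 in limma, 4 were higher and 1 lower. Rdm1, a DNA repair protein with a RAD52 motif, stood at 9.86, 9.63, 9.76 and 9.70 in knockouts 139, 140, 148 and 152 and at 8.79 to 9.14 with a median of 8.96 in heterozygotes (0.76 ± 0.11, SE; limma, adjusted p = 0.000529). All 4 knockouts were above all 6 heterozygotes, and both litters stood together. Rdm1 was also higher in knockouts than in heterozygotes at 17 dpp, 9.69 ± 0.22 (n = 4; limma, adjusted p = 0.00279), and lower in wild types at 20 dpp, 7.99 ± 0.0488 (n = 3). It was called in each of the alternative fits. Ccdc110 (-0.99), Pgk2, a germ cell glycolytic enzyme (0.68), Hspa2, a spermatocyte chaperone (0.50) and Ybx3 (0.76) were not called. The list's median was 0.74 with the litter 1 knockouts alone, where 3 were called higher, and 0.03 with the litter 2 knockouts alone.

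Few spermatid markers were called, and many were not detected or not resolved. Of 31 round spermatid genes 16 were detected on no array of either group, 1 was called higher (3.23%, against 5.9% of all genes) and 0 lower, and the median was 0.03. Of the 15 others 4 had an interval within 2-fold. Of 14 elongating spermatid genes 7 were detected on no array of either group and 1 was called higher (7.14%), with a median of 0.19, and of the 7 others 4 had an interval within 2-fold. Tssk6, a kinase of late spermatids, stood at 5.94, 5.62, 6.33 and 5.96 in the knockouts and was not well above background in the heterozygotes (4.63 to 4.88 with a median of 4.80), at least 1.31-fold higher (limma, adjusted p = 0.00857), and wild types at 20 dpp had 6.37 ± 0.661. Akap3, a kinase anchor of the fibrous sheath of the sperm tail, stood at 6.09, 6.67, 7.30 and 6.84 against 5.34 to 5.83 with a median of 5.55 (limma, adjusted p = 0.0195), far from the wild-type 9.69 ± 0.59. Neither gene overlapped between the knockouts and the heterozygotes. Tssk6 and Akap3 were not called with litter as a random block (adjusted p = 0.0828 and 0.119). The difference of Akap3 was 0.44 without background correction (limma, adjusted p = 0.161) and 0.49 with the authors' values (limma, adjusted p = 0.138). Acrosome genes such as Acrbp (0.87), Spaca1 (-0.15) and Zpbp (0.79) were not called. Acrv1 of the acrosome and the chromatin genes Prm1 and H1f7 were detected on no array of either group, and the chromatin gene Tnp1 on 1 heterozygous and 2 knockout arrays. Prss21, a testis serine protease, had the lowest difference of the list at -1.02 and was not called (limma, adjusted p = 0.138).

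No gene was called among 34 flagellum and cilia genes (median 0.34), 15 spermiogenic transcription regulators (0.21), 13 germ line energy metabolism isozymes (0.21), 13 germ line chromatin genes (0.06) and 23 meiotic division genes (0.01). Over all genes 11.4% were called. An interval within 2-fold was found for 61.8%, 80%, 69.2%, 76.9% and 91.3% of the lists in the same order, against 92.2% of all genes. A missing call in these lists therefore does not show a match. The flagellum list had a median of 0.60 and 2 calls with litter 1 alone, and of -0.003 and 0 calls with litter 2 alone. At an unadjusted p under 0.05 in limma, these 5 lists held 5 higher and 0 lower, 4 and 0, 1 and 0, 0 and 2, and 1 and 2 genes in the same order. Among 10 sex chromosome spermatid genes, of which 5 were detected on no array of either group, Cypt3 and Zfy1 were called higher (20%, against 5.9% of all genes). Cypt3, an X-linked gene of the perinuclear theca, stood at 5.42, 6.08, 6.27 and 6.45 and was not well above background in heterozygotes, at least 1.4-fold higher (limma, adjusted p = 0.00996). Zfy1, a Y-linked zinc finger gene with a near-identical copy, stood at 6.96, 7.38, 6.64 and 6.37 against 6.22 to 6.49 with a median of 6.38, higher in litter 2, with knockout 152 inside the heterozygous range (0.47 ± 0.15, SE; limma, adjusted p = 0.039). In the piRNA pathway 1 of 20 genes was higher, Tdrd7 (0.52), and 1 lower, Tdrkh (-0.22), both with Tudor domains. Each is 5% of the list, near the 5.9% of all genes called higher and the 5.46% called lower. With probes of a gene averaged, Tdrkh was at 0.10 (limma, adjusted p = 0.457). Cypt3, Zfy1, Tdrd7 and Tdrkh were not called with litter as a random block (adjusted p = 0.0918 to 0.214). Cypt3 was also not called without background correction or with the authors' values (limma, adjusted p = 0.174 and 0.145). Calls ended for Akap3 without animal 148 or 152 (adjusted p = 0.0974 and 0.0694), Cypt3 without animal 152 (adjusted p = 0.052), Zfy1 without any 1 of animals 75, 116, 121, 127, 139, 140 and 148 (adjusted p = 0.0546 to 0.153), Tdrd7 without any 1 of animals 116, 121, 126, 131, 148 and 152 (adjusted p = 0.0563 to 0.181), and Tdrkh without any 1 of animals 116, 121, 127, 131, 140, 148 and 152 (adjusted p = 0.0576 to 0.111).

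**Figure D3:**
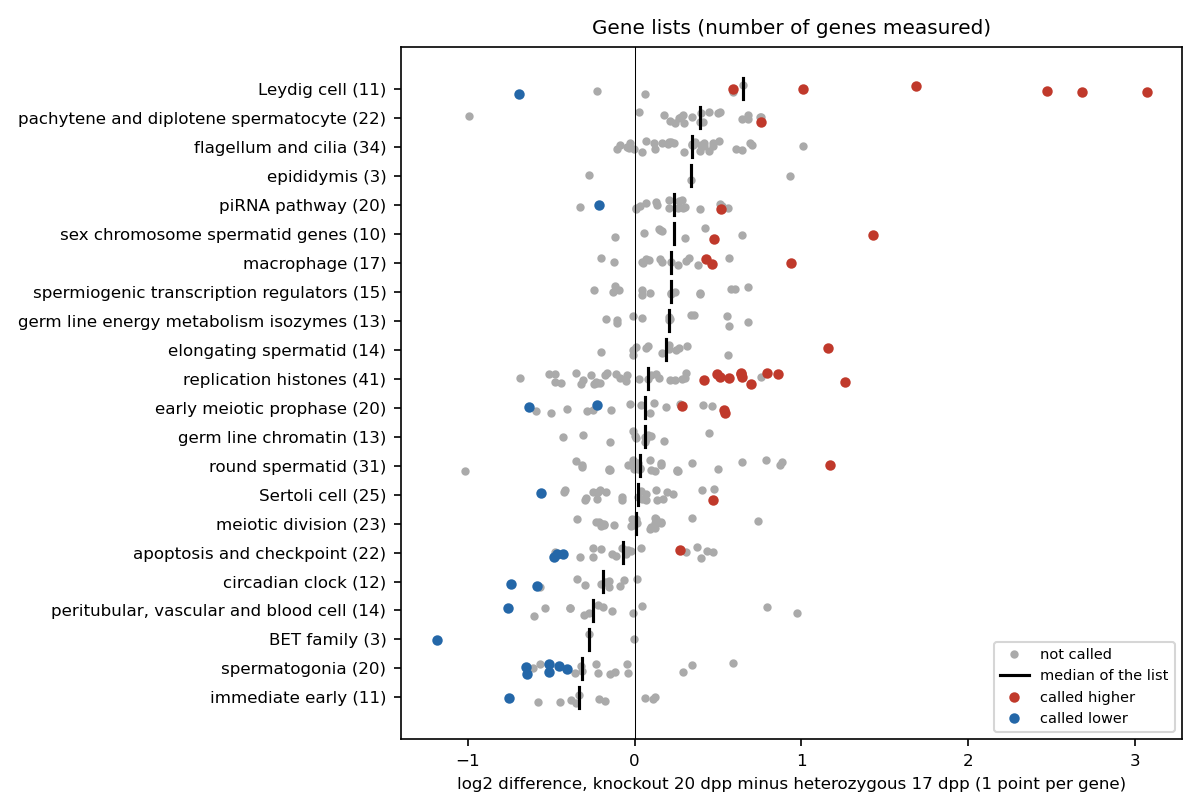
Log2 difference between knockouts at 20 dpp and heterozygotes at 17 dpp (x axis) for every measured gene of 22 lists (y axis, with the number of genes), 1 point per gene. Black bars are list medians, red points are genes called higher and blue points genes called lower. The Leydig cell list has the highest median, 0.65, and the immediate early list the lowest, -0.34.

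Among the gene lists, the largest differences lay in Leydig cell genes. Of 11 genes 6 were called higher (54.5%, against 5.9% of all genes) and 1 lower (9.09%, against 5.46%), and the median was 0.65. They include glandular kallikreins, a cluster of secreted serine proteases of which Klk1b21, Klk1b24 and Klk1b27 are made by mouse Leydig cells. Klk1b26, outside the list, was the fourth kallikrein among the 12 largest higher calls, taken over genes detected in every knockout and without overlap between the groups. The 250 bases before the RefSeq start of each of the 4 genes (chromosome 7, GRCm38.p6, plus strand) are shown because these genes stood higher together and are close copies, so that a probe may bind several of them. Their calls are therefore not separate, and Klk1b21, Klk1b24 and Klk1b27 are among the 6 higher calls of the list. They span chr7:44052040-44052289 for Klk1b27, chr7:44102042-44102291 for Klk1b21, chr7:44187986-44188235 for Klk1b24 and chr7:44012428-44012677 for Klk1b26. Capitals mark the 3 runs of at least 14 bases that stand in all 4 sequences.
Klk1b27: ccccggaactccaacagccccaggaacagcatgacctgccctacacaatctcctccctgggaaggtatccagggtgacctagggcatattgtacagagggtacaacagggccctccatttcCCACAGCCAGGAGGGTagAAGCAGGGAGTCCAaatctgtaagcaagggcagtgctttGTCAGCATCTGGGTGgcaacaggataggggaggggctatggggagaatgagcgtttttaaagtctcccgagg
Klk1b21: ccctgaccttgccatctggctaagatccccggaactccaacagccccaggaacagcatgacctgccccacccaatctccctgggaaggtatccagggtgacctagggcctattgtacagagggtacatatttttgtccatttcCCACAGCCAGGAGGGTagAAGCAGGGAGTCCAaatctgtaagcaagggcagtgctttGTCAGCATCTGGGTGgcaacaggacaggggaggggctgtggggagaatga
Klk1b24: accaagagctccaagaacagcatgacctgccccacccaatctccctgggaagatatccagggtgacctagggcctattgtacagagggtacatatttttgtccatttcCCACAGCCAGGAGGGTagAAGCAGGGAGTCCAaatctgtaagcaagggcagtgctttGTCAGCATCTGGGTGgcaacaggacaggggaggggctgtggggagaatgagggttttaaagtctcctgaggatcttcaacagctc
Klk1b26: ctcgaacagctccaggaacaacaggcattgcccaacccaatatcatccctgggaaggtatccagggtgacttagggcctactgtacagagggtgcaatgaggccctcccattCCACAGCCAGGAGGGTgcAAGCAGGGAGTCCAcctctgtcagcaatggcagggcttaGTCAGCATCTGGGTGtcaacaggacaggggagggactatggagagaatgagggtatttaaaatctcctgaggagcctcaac

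Over the aligned part of these windows, 214 to 249 columns, the 6 pairs were 81.9% to 98.1% identical, with Klk1b21 and Klk1b24 the closest pair. The letters of the TATA box, TATAAA, and of the CRE full site, TGACGTCA, stood in none of the 4 windows on either strand. In windows from 250 bases before to 50 after the start, TATAAA stood in 13.6% of all 32851 promoters of the RefSeq table and TGACGTCA in 1.79%. TGACGTCA stood in 2.95% of the promoters of tested genes, 4.38% of those of genes called higher and 3.17% of those of genes called lower. For TATAAA the same shares were 7.54%, 8.33% and 5.59%.

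Klk1b27 stood at 8.27, 9.27, 9.48 and 9.97 in knockouts 139, 140, 148 and 152 and at 5.64 to 7.04 with a median of 5.91 in heterozygotes. Klk1b21 stood at 9.49, 10.23, 10.51 and 10.98 against 7.07 to 8.14 with a median of 7.57. Klk1b24 stood at 8.24, 9.15, 9.38 and 9.75 against 6.15 to 7.54 with a median of 6.53. Every knockout was above every heterozygote for these 3 genes and for Klk1b26 (7.00, 7.80, 7.98 and 8.30 against 5.26 to 6.26 with a median of 5.78), and knockout 139 was the lowest of the 4 each time. The log2 differences were 3.07 ± 0.45, 2.68 ± 0.42, 2.47 ± 0.40 and 1.99 ± 0.33 (SE) for Klk1b27, Klk1b21, Klk1b24 and Klk1b26 (limma, adjusted p = 0.000587, 0.000742, 0.00105 and 0.00107), and every probe of the 4 genes was called higher. Levels of wild types at 20 dpp lay between, at 8.00 ± 0.576, 9.03 ± 0.635, 7.97 ± 0.582 and 6.58 ± 0.418 (n = 3). The knockouts were called higher than those wild types for each of the 4 genes (limma, adjusted p = 0.0475, 0.0313, 0.0404 and 0.0119), where 39.4% of all genes were. With the litter 2 knockouts alone the differences from the heterozygotes were 2.59, 2.24, 2.04 and 1.62, and none of the 4 was called (limma, adjusted p = 0.0628, 0.0748, 0.093 and 0.0988).

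Some steroid enzymes of Leydig cells were higher too. Cyp17a1, which makes the precursors of androgens, stood at 11.57, 12.46, 12.60 and 12.61 in knockouts 139, 140, 148 and 152 and at 9.79 to 11.25 with a median of 10.65 in heterozygotes (1.69 ± 0.37, SE; limma, adjusted p = 0.00732). No knockout overlapped, although knockout 139 lay well below the other 3. Cyp11a1, the first enzyme of steroid synthesis, rose by 1.01 ± 0.25 and Insl3, a peptide hormone of Leydig cells, by 0.59 ± 0.17 (limma, adjusted p = 0.0155 and 0.0271). Star, which carries cholesterol into mitochondria (0.59), Ptgds, a prostaglandin synthase (0.65), Scarb1, a lipoprotein receptor (0.06), and Hsd17b3, which makes testosterone (-0.23), were not called. Nr5a1, a nuclear receptor of steroid-making cells and Sertoli cells, was lower (-0.69 ± 0.18; limma, adjusted p = 0.0197). Averaged over the 11 genes, the 4 knockouts lay at 8.14 to 8.57, the heterozygotes at 7.08 to 7.71 and the wild types at 20 dpp at 7.36 to 7.75. The kallikreins Klk1b27, Klk1b21 and Klk1b24, which are close copies, have the largest differences of the list and weigh on this mean. Between 4 and 6 of the genes were called higher without any 1 animal, and the call of Nr5a1 was lost without knockout 148 or knockout 152. With litter 1 alone 4 were called higher (median 0.70), with litter 2 alone 0 (median 1.17), and with litter as a random block 3, the kallikreins, with an adjusted p of 0.102 for Cyp17a1 in limma.

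**Figure D4:**
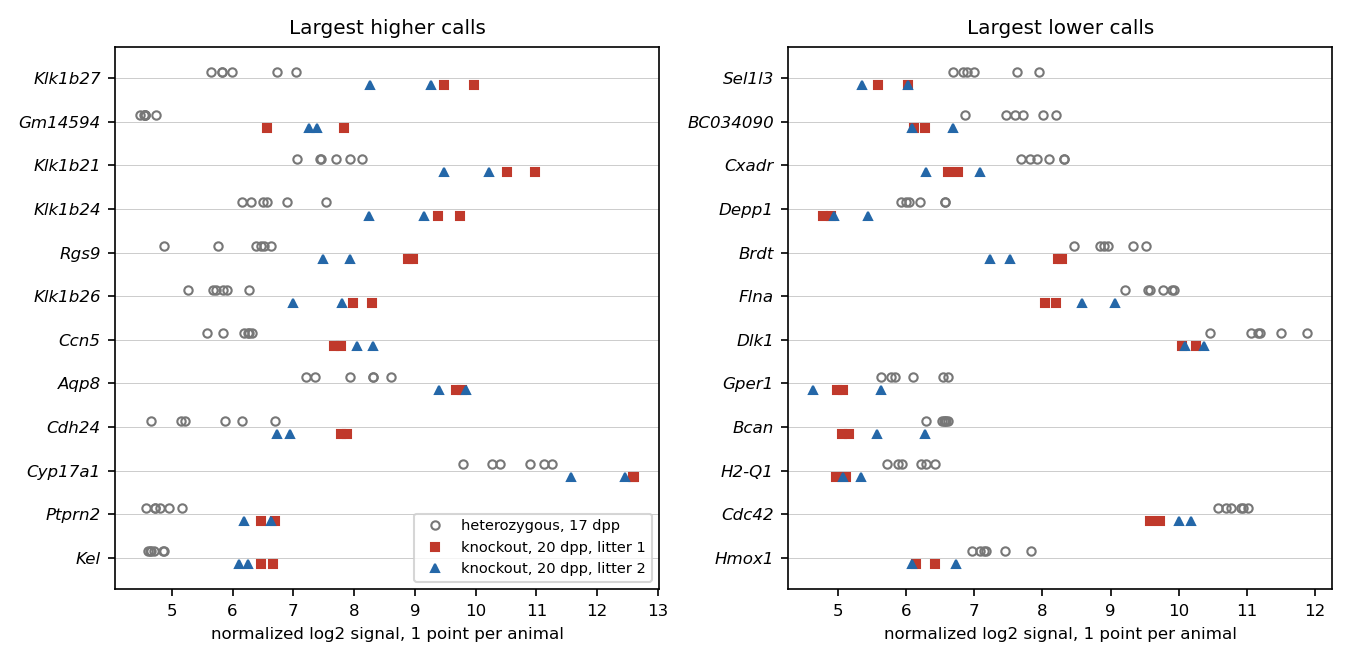
Normalized log2 signal (x axis) of the 12 called genes with the largest differences in each direction (y axis). Open circles are the 6 heterozygotes at 17 dpp, red squares the 2 litter 1 knockouts and blue triangles the 2 litter 2 knockouts at 20 dpp, 1 point per animal. By the rule of choice no gene overlaps between the groups.

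Of the 12 largest higher calls, 7 were neither kallikreins nor Cyp17a1. Gm14594, a predicted gene of chromosome X, was not well above background on any heterozygous array (4.48 to 4.74 with a median of 4.56) and stood at 7.26, 7.39, 6.57 and 7.83 in knockouts 139, 140, 148 and 152, at least 3.24-fold higher (limma, adjusted p = 2.36e-05). Ptprn2, a membrane protein of dense-core vesicles, stood at 6.18, 6.63, 6.46 and 6.70 against 4.58 to 5.17 with a median of 4.76, at least 1.9-fold higher (limma, adjusted p = 2.36e-05). Kel, the zinc endopeptidase of the Kell blood group, stood at 6.11, 6.26, 6.47 and 6.67 against 4.61 to 4.88 with a median of 4.69, at least 1.75-fold higher (limma, adjusted p = 0.000323). These 3 genes were detected on all 6 knockout arrays and no heterozygous array. Ccn5, a secreted protein of the CCN family, stood at 8.32, 8.05, 7.78 and 7.67 against 5.59 to 6.32 with a median of 6.22, highest in the litter 2 animals (1.88 ± 0.25, SE; limma, adjusted p = 0.000323). With Rdm1, these 4 genes kept their calls in every alternative fit, litter 2 alone included.

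They did not share a pattern over the other groups. The 3 wild types at 20 dpp had 8.35 ± 0.306 of Gm14594, above the knockouts, and 4.79 ± 0.0129 of Ptprn2, at the level of the heterozygotes, with Kel (5.54 ± 0.522) and Ccn5 (6.80 ± 0.216) between (n = 3 each). The knockouts differed from those wild types for each of the 4, by -1.08 for Gm14594, 1.70 for Ptprn2, 0.83 for Kel and 1.16 for Ccn5 (limma, adjusted p = 0.0108, 1.28e-06, 0.00882 and 0.00221), where 60.1% of all genes were called, 39.4% higher and 20.7% lower. Rgs9, a regulator of G protein signalling, stood at 7.49, 7.94, 8.98 and 8.89 against 4.87 to 6.64 with a median of 6.42 (2.22 ± 0.39, SE; limma, adjusted p = 0.0017), close to the wild-type 8.31 ± 0.208 at 20 dpp. Aqp8, a water channel, stood at 9.85, 9.39, 9.67 and 9.78 against 7.21 to 8.61 with a median of 8.12 (1.72 ± 0.35, SE; limma, adjusted p = 0.00496), with the 4 knockouts close together. Cdh24, a cadherin, stood at 6.72, 6.94, 7.88 and 7.78 against 4.65 to 6.70 with a median of 5.55 (1.71 ± 0.32, SE; limma, adjusted p = 0.00305), so that knockout 139 was barely above the highest heterozygote, and wild types at 20 dpp had 9.17 ± 0.293. Calls of Rgs9, Aqp8 and Cdh24 held without any 1 animal but not with litter 2 alone (limma, adjusted p = 0.151, 0.131 and 0.183).

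The 12 largest lower calls, taken over genes detected in every heterozygote and without overlap, were smaller in size than the 12 largest higher calls. Cxadr, a receptor of tight junctions, stood at 7.09, 6.29, 6.76 and 6.61 in knockouts 139, 140, 148 and 152 and at 7.69 to 8.32 with a median of 8.01 in heterozygotes (-1.34 ± 0.21, SE; limma, adjusted p = 0.000872), with 2 of its 3 probes called. Cdc42, a small GTPase of cell polarity, stood at 10.18, 10.01, 9.58 and 9.73 against 10.58 to 11.02 with a median of 10.85 (-0.95 ± 0.15, SE; limma, adjusted p = 0.000872). Flna, an X-linked actin cross-linker, stood at 9.06, 8.58, 8.04 and 8.20 against 9.21 to 9.93 with a median of 9.67 (-1.19 ± 0.26, SE; limma, adjusted p = 0.0079). All knockouts were below all heterozygotes, with knockout 139 nearest to them for each of the 3 genes. The means of wild types at 20 dpp were lower still, 6.32 ± 0.146 for Cxadr, 9.29 ± 0.121 for Cdc42 and 7.68 ± 0.0668 for Flna (n = 3). The knockouts were called higher than those wild types for Cdc42 and Flna (limma, adjusted p = 0.00798 and 0.0333), where 39.4% of all genes were. For Cxadr they were not (limma, adjusted p = 0.216), and knockout 140 lay below the wild-type mean.

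Sel1l3 (-1.43 ± 0.32, SE), BC034090 (-1.35 ± 0.26), Depp1 (-1.20 ± 0.23) and Gper1, a G protein-coupled oestrogen receptor (-1.01 ± 0.22), were lower as well (limma, adjusted p = 0.0086, 0.0035, 0.00371 and 0.0079), and their calls held without any 1 animal but not with litter 2 alone (adjusted p = 0.122 to 0.168). Sel1l3, Depp1 and Gper1 were not called with litter as a random block (adjusted p = 0.0503 to 0.0576). H2-Q1, a class I histocompatibility gene with close copies, was detected in every heterozygote (5.72 to 6.42 with a median of 6.07) and on no knockout array (5.33, 5.08, 5.12 and 4.96), at least 1.5-fold lower (limma, adjusted p = 0.00114). Bcan, the proteoglycan brevican, stood at 6.28, 5.57, 5.16 and 5.05 against 6.29 to 6.61 with a median of 6.56, nearly touching in knockout 139 (-1.005 ± 0.23, SE; limma, adjusted p = 0.00923). Dlk1, a Notch-related ligand of immature cells, stood at 10.37, 10.09, 10.26 and 10.05 against 10.46 to 11.89 with a median of 11.18 (-1.02 ± 0.29, SE; limma, adjusted p = 0.0264). Hmox1, which breaks down haem, stood at 6.73, 6.08, 6.15 and 6.42 against 6.97 to 7.83 with a median of 7.16 (-0.93 ± 0.26, SE; limma, adjusted p = 0.0268). Wild types at 20 dpp were below the heterozygotes in the fit for each of these 8 genes, as for Cxadr, Cdc42 and Flna, and Brdt alone of the 12 was higher in them. Flna, Dlk1, Bcan and Hmox1 were not called with litter as a random block (adjusted p = 0.0601 to 0.13). Calls ended for Bcan without animal 148 or 152 (adjusted p = 0.0539 and 0.0561), Dlk1 without any 1 of animals 116, 121, 140, 148 and 152 (adjusted p = 0.055 to 0.09), and Hmox1 without any 1 of animals 116, 121, 140, 148 and 152 (adjusted p = 0.0526 to 0.0962).

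Replication histone genes, whose transcripts are normally made in the S phase, were called only upwards: 11 of 41 (26.8%, against 5.9% of all genes), with a median of 0.08. The calls lay mostly in histone H4 genes, of which 8 of 11 were higher (median 0.64), against 3 of the other 30 (median -0.07). H4c9 stood at 8.70, 8.77, 8.83 and 8.76 in knockouts 139, 140, 148 and 152 and at 7.61 to 8.22 with a median of 7.91 in heterozygotes (0.86 ± 0.16, SE; limma, adjusted p = 0.00275). H4c11 stood at 8.60, 8.57, 8.78 and 8.45 against 7.69 to 8.06 with a median of 7.91 (0.70 ± 0.14, SE; limma, adjusted p = 0.00537). No knockout overlapped for either gene, and both litters stood together. H4c9 was not called with litter as a random block (adjusted p = 0.0607). H2bc21 (1.26 ± 0.26) and H2ac19 (0.64 ± 0.12) of other histone families were also higher (limma, adjusted p = 0.00567 and 0.00376). H4c9 was higher in knockouts at 17 dpp too, 8.89 ± 0.539 (n = 4), and lower in wild types at 20 dpp, 7.41 ± 0.109 (n = 3). The H4 genes are near-identical in sequence, so their probes may read several of them and the 8 calls are not separate. Without knockout 148 the list had 7 calls and without knockout 152 8, and without heterozygote 75 or knockout 139 there were 5 lower calls as well, against 1 without heterozygote 126 or 127. Litter 1 alone gave 9 higher and 7 lower calls (median -0.09), litter 2 alone 0, and litter as a random block 3 higher calls.

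The other somatic cell lists held at most 3 calls each. All 25 Sertoli cell genes had an interval within 2-fold, with a median of 0.02. Espn, an actin bundler of Sertoli cell junctions, was higher (0.47 ± 0.13, SE), and the cystatin Cst12 was lower (-0.56 ± 0.14; limma, adjusted p = 0.0214 and 0.0169). Each is 4% of the list, below the 5.9% of all genes called higher and the 5.46% called lower. Cst12 stood at 13.40, 13.40, 12.63 and 12.80 in knockouts 139, 140, 148 and 152 against 13.47 to 13.71 with a median of 13.63, with the litter 2 animals close to the heterozygotes. Of 17 macrophage genes 3 were called higher (17.6%, against 5.9% of all genes; median 0.22): Lyz2, a lysozyme, the mannose receptor Mrc1 and the class II gene H2-Ab1. Lyz2 stood at 9.81, 9.86, 10.16 and 10.20 against 8.85 to 9.44 with a median of 9.02 without overlap (0.94 ± 0.21, SE; limma, adjusted p = 0.00857), and 1 of its 2 probes was called. Mrc1 and H2-Ab1 differed by 0.46 and 0.43, while Cd163 (0.57), Adgre1 (0.15) and Csf1r (0.09) were not called. Averaged over the 17 genes, the knockouts lay at 7.33 to 7.59 and the heterozygotes at 7.01 to 7.42, ranges that overlap. Among 14 peritubular, vascular and blood cell genes, with a median of -0.25 and 9 intervals within 2-fold (64.3%, against 92.2% of all genes), only Cdh5, the cadherin of endothelium, was called, with a difference of -0.76 ± 0.17 (SE; limma, adjusted p = 0.00847). That is 7.14% of the list, against 5.46% of all genes called lower. None of 3 epididymis genes was called, with 1 lower at an unadjusted p under 0.05 in limma, and without knockout 148 or knockout 152 only 1 macrophage gene was called. Espn, Cst12, Lyz2, Mrc1, H2-Ab1 and Cdh5 were not called with litter as a random block (adjusted p = 0.0795 to 0.177). Calls ended for Espn without animal 148 (adjusted p = 0.0564), Cst12 without animal 148 or 152 (adjusted p = 0.0984 and 0.085), Mrc1 without animal 148 or 152 (adjusted p = 0.0617 and 0.0774), and H2-Ab1 without any 1 of animals 116, 139, 148 and 152 (adjusted p = 0.0567 to 0.0855).

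Apoptosis and checkpoint genes held 3 lower calls (13.6%, against 5.46% of all genes) and 1 higher (4.55%, against 5.9%) among 22, all with an interval within 2-fold (median -0.07). At an unadjusted p under 0.05 in limma, 6 genes of the list were higher and 4 lower. The kinases Chek2 (-0.48 ± 0.13, SE) and Atm (-0.43 ± 0.14) of the DNA damage response and the death agonist Bid (-0.47 ± 0.14) were lower, and Mdm2, the ligase that degrades p53, was higher (0.27 ± 0.09; limma, adjusted p = 0.021, 0.0483, 0.03 and 0.0424). Dusp1, a phosphatase induced by stress, was the 1 called among 11 immediate early genes (9.09%, against 5.46% of all genes called lower). It stood at 8.55, 8.18, 8.31 and 8.50 in the knockouts against 8.75 to 9.51 with a median of 9.20 (-0.75 ± 0.17, SE; limma, adjusted p = 0.00841). Of 12 circadian clock genes Tef, a transcription factor of clock output (-0.74 ± 0.13, SE), and Cry2, a clock repressor (-0.59 ± 0.14), were lower (limma, adjusted p = 0.00135 and 0.0137). These calls are 16.7% of the list, against 5.46% of all genes called lower. Chek2, Atm, Bid, Mdm2, Dusp1 and Cry2 were not called with litter as a random block (adjusted p = 0.0764 to 0.185). With median scaling Chek2, Atm and Bid were not called (limma, adjusted p = 0.0674, 0.246 and 0.13). With probes of a gene averaged, Chek2 was at -0.21 and Atm at -0.34, not called (limma, adjusted p = 0.212 and 0.109). Dusp1, Tef and Cdh5 kept their calls without any 1 animal but not with litter 2 alone (adjusted p = 0.151, 0.122 and 0.151). Calls ended for Chek2 without animal 148 or 152 (adjusted p = 0.0839 and 0.106), Bid without any 1 of animals 116, 121, 131, 140, 148 and 152 (adjusted p = 0.0531 to 0.126), Mdm2 without any 1 of animals 116, 121, 126, 131, 148 and 152 (adjusted p = 0.0539 to 0.15), Atm without any 1 of animals 116, 121, 126, 127, 131, 148 and 152 (adjusted p = 0.0529 to 0.228), and Cry2 without animal 148 or 152 (adjusted p = 0.0804 and 0.0655). Of the 379 list genes measured, 50 were called in all (13.2%, against 11.4% of all genes), 31 higher (8.18%, against 5.9%) and 19 lower (5.01%, against 5.46%).

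The 17 genes called between both knockout litters show in which direction litter 1 stood apart. Gm20815, Gm20867, Alas2 and Rsad2 were higher in litter 1, and 13 genes were higher in litter 2, among them Ccdc25, Mdh1, Emc9, Cdc14b and Ndufb9. Alas2, the erythroid enzyme of haem synthesis, stood at 7.14, 6.68, 8.91 and 8.54 in knockouts 139, 140, 148 and 152, with the litter 2 values inside the heterozygous range of 6.12 to 7.20 with a median of 6.92. Rsad2, an interferon-induced antiviral gene, stood at 5.20, 4.71, 6.79 and 6.63 against 5.13 to 6.14 with a median of 5.55. Mdh1, a malate dehydrogenase, stood at 7.22, 7.45, 6.08 and 6.22 against 6.90 to 7.39 with a median of 7.23, and Cdc14b, a phosphatase, at 9.45, 9.18, 8.18 and 8.20 against 8.89 to 9.49 with a median of 9.23. For Mdh1 and Cdc14b the litter 1 animals lay below all heterozygotes and near the wild types at 20 dpp, which are of the same litter (6.04 ± 0.232 and 8.13 ± 0.0618). None of these genes but Gm20815 was called between the 4 knockouts and the heterozygotes. The median difference between litter 1 and litter 2 was 0.42 over the rising genes and -0.23 over the falling genes. With 2 animals per litter, a difference between litters and one between these animals cannot be told apart. Array number differs with litter as well: knockouts 148 and 152 had 2 arrays each, and knockouts 139 and 140 had 1 each. The arrays of 139 and 140 detected 19460 and 19359 probes, and those of 148 and 152 detected 17658 to 18973. Whether this bears on the litter differences was not tested.

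**Figure D5:**
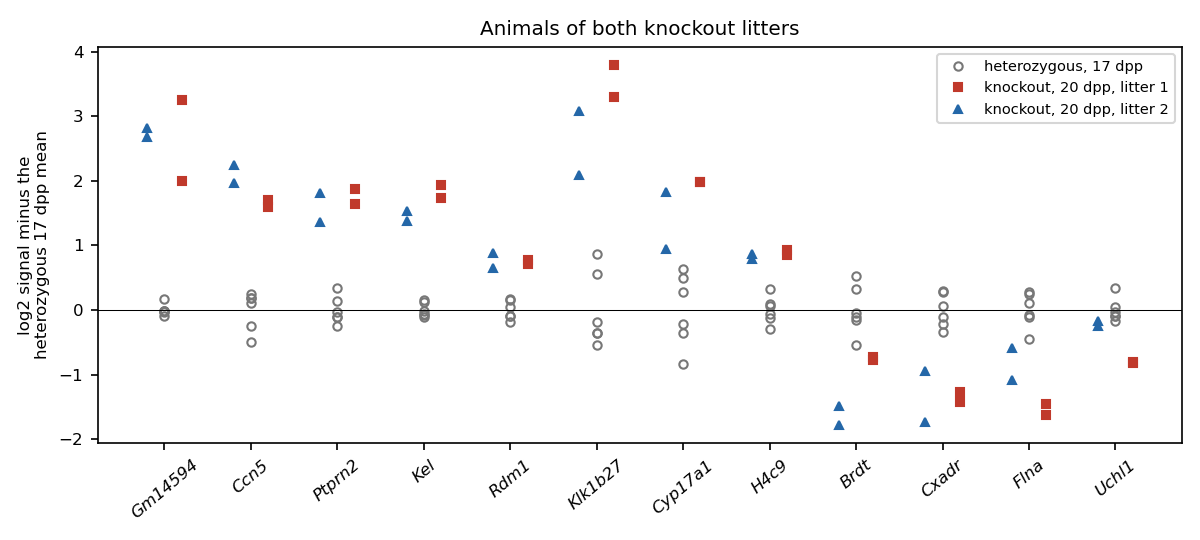
Normalized log2 signal minus the mean of the heterozygotes at 17 dpp (y axis) for 12 genes (x axis), 1 point per animal. Open circles are the 6 heterozygotes, red squares the litter 1 knockouts and blue triangles the litter 2 knockouts at 20 dpp. Both litters lie on the same side of 0 for each gene, and the litter 2 knockouts lie nearer to 0 for Flna and Uchl1 and further from it for Brdt and Ccn5.

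Testes of the older knockouts were heavier. The labels give 18, 21.2, 21.3 and 21.5 mg for knockouts 139, 140, 148 and 152, and 11 to 17 mg with a median of 14.5 mg for the 6 heterozygotes. Every knockout was heavier than every heterozygote, 20.5 ± 1.67 mg (SD, n = 4) against 14.3 ± 2.16 mg (n = 6), a difference of 6.17 mg. The exact two-sided permutation test over animals gave p = 0.00476, the smallest that the 210 splits allow. The test treats litter mates as separate units, and the groups share no litter, so the p takes no account of litter.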

How the data were processed

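The submitters' labels describe Trizol extraction of testis RNA. In the table that the authors deposited, each array has a raw intensity per probe, linear and unnormalized, from GenomeStudio 2011.1 (per the submitters' processing notes), and a detection p-value. Background subtraction before deposit is not stated in the labels. A second deposited matrix, of processed intensity values, was used as an alternative. Every column was mapped to a sample (0 unmapped).

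Arrays with the same mouse number, which also agreed in sib number (taken as the litter) and testis weight, were averaged as 1 animal. Whether they carry the same RNA is not known. In place of the 6 replicates per group of the series text, the arrays came from 24 animals. Signals were normalized with neqc of limma 3.58.1 (normexp background with negative controls inferred from detection p-values, quantile normalization, offset 16, log2) in R 4.3.3. Of 45281 probes, 34885 had a single gene symbol, 18 several and 10378 none, and 34807 symbols were updated through RefSeq (GRCm38.p6). Probes detected (p under 0.01 on all arrays of an animal) in at least 3 animals were kept (21190). The brightest probe stood for each of 11529 genes. Of 4386 genes with several probes, 9 had probes called in opposite directions. A linear model over all 6 groups (lmFit, eBayes with trend) gave the contrast, its 95% interval and Benjamini-Hochberg adjusted p-values. Where no array of the lower group detected a gene, only a lower bound of its fold is given: the mean of the higher group against the lowest detected signal on the arrays of the other. That applied to 40 higher and 18 lower calls. The fit was tested on simulated data with known changes.

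The groups and gene lists were chosen with earlier results of these data known. The 22 lists hold 505 genes, 379 of them measured, and are described by counts and medians without a test of the list. Named genes are Brdt; the 12 largest called differences each way among genes without overlap between groups and detected throughout the higher group; up to 4 called members of each list by adjusted p; the 6 largest rises of maturation genes within 2-fold and called each way; and the 5 largest called differences each way between litters. Other named genes were chosen after their values were seen.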

Additional observations from a re-analysis of the deposited data

Results flagged for a closer look

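In 6 of 164 groups of values checked over the named genes and testis weight, 1 animal stood far from the rest of its group, measured by its gap to the nearest animal over the range of the group. Chance alone marks about 1 in 20 such groups. Knockout 139 had a normalized log2 signal of 11.57 for Cyp17a1, against 12.46 to 12.61 in the other 3 knockouts at 20 dpp, and a testis weight of 18 mg, against 21.2 to 21.5 mg. Knockout 148 had 12.97 for Syce3, against 12.81 to 12.84 in the other knockouts. Heterozygote 75 had 4.74 for Gm14594, against 4.48 to 4.57 in the other 5 heterozygotes, all of them not well above background, and 6.29 for Bcan, against 6.53 to 6.61. Heterozygote 121 had 12.01 for Mdm2, against 12.17 to 12.23 in the others.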

How the results depend on the processing

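Calls between knockouts at 20 dpp and heterozygotes at 17 dpp numbered 1310 as reported. They came to 1044 of 19057 genes without the detection filter, 1045 with both groups alone, 1197 with probes averaged, 1253 without the intensity trend, 1336 with a stricter filter, 1355 without background correction, 1359 with the authors' values and 1723 with median scaling. They moved to 116 with litter as a random block, 2231 with litter 1 knockouts alone, 16 with litter 2 alone, 1980 with array brightness as a covariate, 2073 with arrays as samples and the replicate number as a block, and 2913 for the same without the replicate block. Leaving out 1 animal gave 368 to 1835 calls. The correlation of same-numbered samples' deviations was -0.38 to 0.26, over 0.1 in 4 of 6 pairs, so the numbers were not taken to pair the samples. Genes bounded within 2-fold numbered 10628, 18163 of 19057 without the filter, 7094 for a bound of 1.5-fold, and 9271 (litter 1 alone) to 11274 (no background correction) otherwise, 10183 to 10748 without 1 animal. Brdt was at -0.75 (no longer called) with litter 1 alone and was called in the other fits run, at -1.34 to -0.99 without 1 animal.

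Of the rising genes chosen anew in each fit, 151 were called higher as reported. There were 95 without background correction, 388 with median scaling, 20 with litter as a random block, 410 with litter 1, 1 with litter 2, 329 with array brightness, 328 of 3126 with no minimum fold, and 35 to 287 without 1 animal. List genes called numbered 50, 9 with litter as a random block, 3 with litter 2 alone, and 21 to 72 without 1 animal. The Sertoli cell median was -0.13 with litter 1 alone. Calls between the knockout litters numbered 17, 9 without background correction, 586 (17 higher, 569 lower) with median scaling, 9 with the authors' values, 6 without the filter and 3 with probes averaged. Tdrkh turned to 0.10 with probes averaged, and Gm20815 to -0.012 with litter 2 alone. Testis weights differed by 5.5 to 7 mg without 1 animal. The cause of these changes was not tested. Of 67 called named genes 34 were called without any 1 animal, 7 with litter 2 alone and 22 with litter as a random block. The number of animals and the signal over background of dim probes limit these results.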
